A study of Mus musculus with 4 samples.

Results

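The genes described here are 107 microRNA (miRNA) genes measured in SRC-3 knockout and wild-type blood progenitors. They were taken from the deposited array values by gene symbol (Mir or Mirlet followed by a number, host transcripts left out), with 1 probe set a gene, and kept where the mean over all 4 arrays was at least 4.32 on the log2 scale, the level of the median gene. Of 22180 genes with a probe set of their own, 478 were miRNA genes, and 107 of those reached that level while 371 did not. They were thus selected on their mean signal, which is given below only as a description, and not on the difference between knockout and wild type.

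Gene expression was measured on 4 Affymetrix arrays, 1 a sample. The KO group was 2 samples from mice with an SRC-3 knockout, and the WT group was 2 samples from wild-type mice. All 4 came from male mice aged 8 weeks, and the RNA came from bone marrow cells sorted by flow cytometry after red cell lysis as lineage-, Sca1+ and c-Kit+ (LSK cells), which are enriched for hematopoietic stem cells and early progenitors. SRC-3 is the product of Ncoa3 and serves nuclear receptors and other transcription factors as a coactivator. The design asked which genes differ in LSK cells without SRC-3. Replicates are labelled as biological, but not as separate mice or pools, and p-values cover no more than the variation among these samples, which could be technical in part. The sources used here do not give how the knockout was made.

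A miRNA gene is transcribed as a long primary transcript, often within another gene. Drosha and Dgcr8 cut a hairpin out of it, Xpo5 exports the hairpin, Dicer1 trims it to a short duplex, and 1 strand enters an Argonaute protein, where its seed (bases 2 to 8) pairs with messenger RNAs and lowers their stability and translation. In the bone marrow, single miRNAs set the balance between stem cell maintenance and the lymphoid, myeloid and erythroid lines. The arrays were hybridised with labelled RNA made from total RNA, so whether a probe set read the primary transcript, the hairpin or the mature strand cannot be told apart here.

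RefSeq (build GRCm38.p6) gave a mature sequence for 92 of the 107 miRNA genes. The sequences below are those of the genes on which the results turn, 5′ to 3′, with the seed in capitals. The first 4 belong to genes that were lower in KO, the genes Mir1931 and Mir26a-1 being those past the adjusted threshold.
mmu-miR-1931: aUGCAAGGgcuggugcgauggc
mmu-miR-26a-5p: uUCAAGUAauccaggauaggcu
mmu-miR-15a-5p: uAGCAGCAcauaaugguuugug
mmu-miR-5128: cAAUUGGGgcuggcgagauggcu
The next 3 belong to genes that were higher in KO.
mmu-miR-3091-5p: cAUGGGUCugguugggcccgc
mmu-miR-3091-3p: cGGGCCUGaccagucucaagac
mmu-miR-191-5p: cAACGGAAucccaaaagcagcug
The remaining sequences show the shared seeds and motif taken up with the results on families.
mmu-let-7a-5p: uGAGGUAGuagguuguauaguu
mmu-let-7i-5p: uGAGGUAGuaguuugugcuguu
mmu-miR-20a-5p: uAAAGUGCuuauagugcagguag
mmu-miR-106b-5p: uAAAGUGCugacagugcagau
mmu-miR-3473d: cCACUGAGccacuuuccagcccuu
mmu-miR-674-5p: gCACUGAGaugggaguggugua
mmu-miR-107-3p: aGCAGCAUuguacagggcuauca

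Ncoa3, the targeted gene, was lower in KO. It measured 5.35 and 5.09 on the KO arrays, against 7.76 and 7.05 on the WT arrays (-2.19 ± 0.27, SE; adjusted p = 0.038 in limma). Gaps between arrays of a group were wider for the miRNA genes than for other genes at or above the level threshold, with medians of 0.30 against 0.11 in KO and 0.31 against 0.28 in WT. Over the 107 miRNA genes the 2 KO arrays correlated by 0.952 and the 2 WT arrays by 0.912, against 0.887 to 0.908 between a KO and a WT array. No scan dates were used here, so an array batch and the group cannot be told apart.

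On these 4 arrays the miRNA genes lay lower in KO than in WT LSK cells. The mean was lower in KO for 82 of the 107 (76.6%, against 50.2% of all genes and 45.5% of genes at or above the same level) and higher for 25 (23.4%, against 49.7% of all genes). The median KO minus WT difference was -0.30 on the log2 scale, with quartiles of -0.66 and -0.03. It was 0.05 over the 10972 other genes at or above the same level and -0.01 over the 371 miRNA genes below it. The median level of the 107 miRNA genes was 5.34 and 5.54 on the KO arrays, against 5.78 and 5.72 on the WT arrays, so both KO arrays lay below both WT arrays. The median of the other genes at or above that level was 6.42 and 6.35 on the KO arrays, against 6.38 and 6.20 on the WT arrays, and these groups overlapped.

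Past an adjusted p of 0.05 (limma, Benjamini-Hochberg over all 22180 genes), 2 miRNA genes fell in KO (1.87%, against 0.113% of all genes) and 0 rose (against 0.397% of all genes and 0.74% of those at or above the same level). At an unadjusted p under 0.05, 30 were lower (28.0%, against 6.93% of all genes and 9.55% of genes at or above the same level). At the same p, 4 were higher (3.74%, against 10.5% and 17.5%). Quantile normalization of the arrays moved that split to 25 lower and 7 higher. Both KO arrays lay below both WT arrays for 54 miRNA genes (50.5%, against 22.9% of all genes) and above both for 11 (10.3%, against 25.1% of all genes and 34.4% of those at or above the level), while in 42 the groups overlapped. The mean was at least 2-fold lower in KO for 14 miRNA genes (13.1%, against 0.69% of all genes and 1.12% of those at or above the level) and at least 2-fold higher for 1 (0.935%, against 1.38% and 2.45%). Of the 14, 10 had both group means at or above the level threshold, and the other 4 reached it through the WT arrays alone. No test of the list was made, since the list was drawn up with earlier results of these data known.

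Single arrays decided the adjusted count. Without WT replicate 1 it was 11 lower and 2 higher, and without WT replicate 2 it was 19 lower and 2 higher. Without KO replicate 1 and without KO replicate 2 it was 0 in each direction, with 17 and 18 lower at an unadjusted p under 0.05. In each of these fits the lone array of a group was assumed to vary like the others. Ncoa3, the targeted gene, also lost its adjusted call without KO replicate 1 (difference -2.32) and without KO replicate 2 (-2.06). The 82 lower means became 79 without WT replicate 1, 80 without WT replicate 2, 74 without KO replicate 1 and 86 without KO replicate 2. Without WT replicate 1 the direction turned for 15 miRNA genes, 9 of them from lower to higher, among which Mir27a (-0.96 on all arrays, 0.00265 without it) and Mir23a (-0.90, and 0.15 without it) had the largest differences on all arrays.

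**Figure D1:**
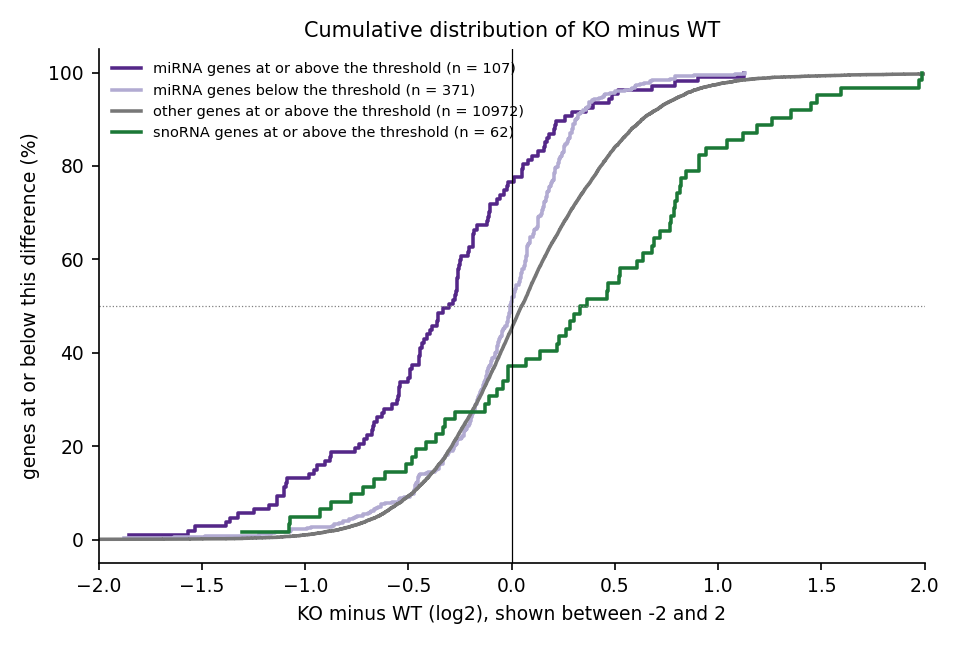
Cumulative share of genes (vertical axis, percent) at or below each KO minus WT difference (horizontal axis, log2 difference of the group means, shown between -2 and 2) for 107 miRNA genes at or above the level threshold, 371 below it, 10972 other genes and 62 snoRNA genes at or above it. The curve of the 107 miRNA genes lies left of the others over most of its range and crosses 50% at -0.30.

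In each range of levels the median of the miRNA genes lay below that of other genes. Among the 33 miRNA genes with a mean level of 4.32 to 5, the median difference was -0.18, against -0.06 for other genes at that level. It was -0.28 for the 36 miRNA genes between 5 and 6, against 0.03 for other genes, and -0.39 for the 18 between 6 and 7, against 0.08. For the 20 at 7 or over it was -0.45, against 0.13 for other genes, and 18 of the 20 had a lower mean in KO. Small nucleolar RNA (snoRNA) genes, another class of short non-coding RNA, lay the other way by median but were split. The 62 at or above the threshold had a median difference of 0.35, with quartiles of -0.31 and 0.81. Of them, 39 had a higher mean in KO and 23 a lower one (37.1%, against 45.5% of genes at or above the same level). At an unadjusted p under 0.05, 26 were higher and 10 lower (against 17.5% and 9.55% of genes at or above that level).

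The threshold cut across some genes with a large difference. Both group means were at or above it for 93 of the 107 miRNA genes, only the WT mean for 9 and only the KO mean for 5. Over the 93 the median difference was -0.28, with 73 lower means and 1 gene past the adjusted threshold. Just inside the threshold were Mir26a-1 (mean level 4.34), Mir375 (4.36) and Mir3068 (4.37). Just outside were Mir328 (4.318), Mir3471-1 (4.31) and Mir721 (4.29).

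**Figure D2:**
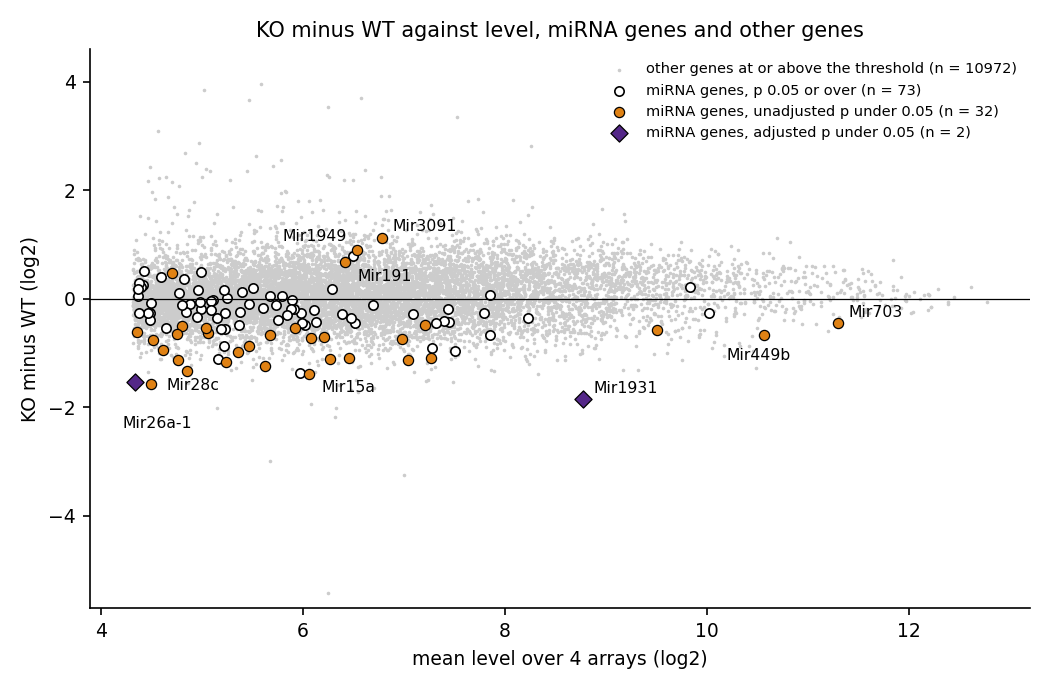
KO minus WT difference (vertical axis, log2) against mean level over the 4 arrays (horizontal axis, log2) for the 107 miRNA genes and 10972 other genes at or above the threshold. Most miRNA genes lie under the zero line at every level, and the diamonds mark Mir1931 and Mir26a-1, the 2 past the adjusted threshold.

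Mir1931 fell the most of the 107 miRNA genes. It measured 7.96 and 7.74 on the KO arrays, against 9.47 and 9.94 on the WT arrays, a difference of -1.85 ± 0.20 (SE, log2; 3.61-fold lower; adjusted p = 0.028 in limma). The groups were far apart beside the gap between arrays of a group. The mature strand lies at chr10:93162879-93162900 on the plus strand, inside Cdk17, which encodes a cyclin-dependent kinase family member. Cdk17 itself measured 6.38 and 6.32 in KO, against 6.85 and 6.75 in WT, a difference of -0.45 ± 0.17 (SE) that did not pass the adjusted threshold.

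Mir26a-1 also fell. It encodes miR-26a, known as a repressor of the Polycomb enzyme Ezh2. It measured 3.41 and 3.73 in KO, against 5.21 and 5.01 in WT, a difference of -1.54 ± 0.19 (SE; adjusted p = 0.040 in limma), and the KO mean lay below the level threshold. Its mature strand lies at chr9:119031811-119031832 on the plus strand, inside and on the same strand as Ctdspl, which encodes a phosphatase. Ctdspl measured 5.32 and 5.36 in KO, against 5.85 and 5.58 in WT, so both KO arrays lay below WT, by -0.38 ± 0.19 (SE). Mir26a-2, a second miR-26a gene, had only a probe set that also lists Ctdsp2 and Mir546. That probe set measured 6.09 and 6.02 in KO, against 6.74 and 6.17 in WT. Its difference of -0.40 ± 0.25 (SE) did not pass the adjusted threshold. Both Mir1931 and Mir26a-1 lost the adjusted call without either KO array and where all 41345 probe sets were tested singly.

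A further group had differences of more than 1 on the log2 scale without passing the adjusted threshold. Mir15a encodes miR-15a, which with miR-16 represses Bcl2 and whose human counterpart is deleted in chronic lymphocytic leukemia. It measured 5.14 and 5.59 in KO, against 6.62 and 6.87 in WT, a difference of -1.38 ± 0.22 (SE; adjusted p = 0.064 in limma). Mir16-1, its neighbour within 10 kb on chromosome 14, measured 3.18 and 2.96 in KO, against 2.85 and 3.21 in WT. The groups thus did not overlap for Mir15a and overlapped for Mir16-1, which was below the level threshold. Dleu2, the non-coding RNA that contains both, measured 5.75 and 5.52 in KO, against 5.66 and 6.21 in WT, and the groups overlapped.

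Mir28c measured 4.13 and 3.30 in KO, against 5.10 and 5.47 in WT (-1.57 ± 0.30, SE; adjusted p = 0.088 in limma). Mir5128 measured 4.20 and 4.17 in KO, against 5.15 and 5.88 in WT (-1.33 ± 0.26, SE; adjusted p = 0.090). In both genes every KO array lay below every WT array and the KO mean was under the level threshold. Mir3075, inside the transcriptional coregulator gene Zmiz1, measured 4.78 and 5.22 in KO, against 6.29 and 6.21 in WT (-1.25 ± 0.21, SE; adjusted p = 0.071). Mir3097, inside Rgs12, measured 6.97 and 6.47 in KO, against 7.82 and 7.80 in WT (-1.09 ± 0.21, SE; adjusted p = 0.088). These groups did not overlap either. Mir763, inside Hmga2, a chromatin protein gene of fetal stem cells and a let-7 target, measured 5.87 and 5.57 in KO, against 6.42 and 7.22 in WT (-1.10 ± 0.29, SE; adjusted p = 0.143). Mir1898, inside Zfr, measured 6.09 and 5.74 in KO, against 7.62 and 6.38 in WT (-1.09 ± 0.40, SE; adjusted p = 0.231), with WT replicate 1 well above WT replicate 2. Without WT replicate 2 the difference of Mir763 was -0.70, and without WT replicate 1 that of Mir1898 was -0.47 and without WT replicate 2 it was -1.71.

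**Figure D3:**
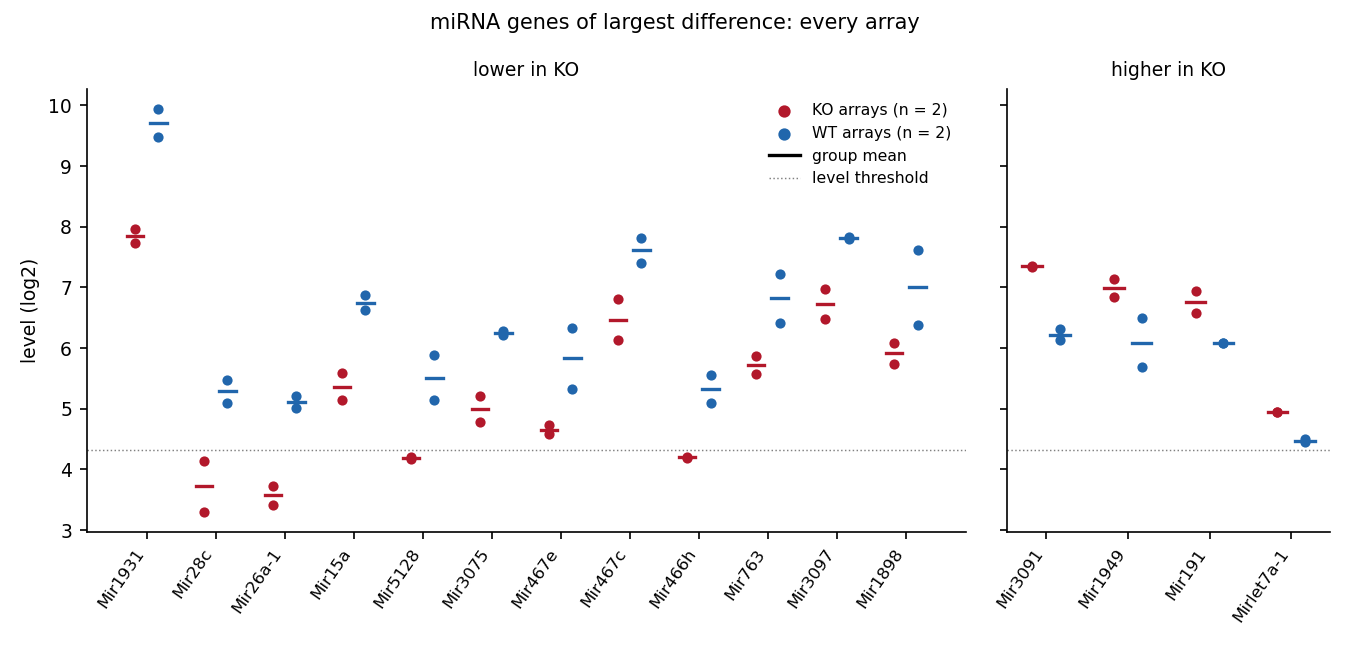
Level (vertical axis, log2) on each KO array (left point of a pair) and each WT array (right point) for the 12 miRNA genes of largest lower difference and the 4 higher ones among those with an unadjusted p under 0.05 and groups that did not overlap. Bars are group means of 2 arrays and the dotted line is the level threshold of 4.32.

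Only 4 of the 107 miRNA genes were higher in KO at an unadjusted p under 0.05. Mir3091, which lies inside the ribosomal protein gene Rps21, measured 7.36 and 7.34 in KO, against 6.14 and 6.31 in WT (1.12 ± 0.17, SE; adjusted p = 0.062 in limma). Mir1949 measured 6.84 and 7.14 in KO, against 5.69 and 6.49 in WT (0.90 ± 0.29, SE; adjusted p = 0.191). The KO arrays lay above the WT arrays in both, and without WT replicate 1 the difference of Mir1949 was 0.50. Mir191, which is expressed in many tissues, measured 6.93 and 6.58 in KO, against 6.08 and 6.08 in WT (0.68 ± 0.19, SE; adjusted p = 0.161). Mirlet7a-1, a gene of the let-7 family that restrains Lin28, Ras and Hmga2 messages, measured 4.94 and 4.95 in KO, against 4.50 and 4.45 in WT (0.47 ± 0.17, SE; adjusted p = 0.222).

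Among the 8 miRNA genes of largest mean signal, 6 had a lower mean in KO. A signal depends on the probe set, so it does not rank the transcripts by amount. Mir703 measured 11.04 and 11.12 in KO, against 11.42 and 11.64 in WT (-0.45 ± 0.13, SE). Mir449b measured 10.08 and 10.37 in KO, against 11.11 and 10.69 in WT (-0.68 ± 0.19, SE). Mir1195 measured 9.11 and 9.33 in KO, against 9.48 and 10.12 in WT (-0.58 ± 0.23, SE). The groups did not overlap in these genes, and none passed the adjusted threshold. Mir5099 (-0.27), Mir483 (-0.36) and Mir1931 were also lower. Mir692-1 (0.21) and Mir3473c (0.08) had the higher KO means, the arrays of Mir3473c overlapping.

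Of a list of miRNA genes known from hematopoiesis, 65 had a probe set of their own and 17 were among the 107. At an unadjusted p under 0.05, 6 of the 65 were lower in KO (9.23%, against 6.93% of all genes) and 5 higher (7.69%, against 10.5%), shares near those of all genes. None of the 65 passed the adjusted threshold, and the median difference was -0.10. Most of the 65 lay below the level threshold, so these shares do not describe the 17. The median difference of all miRNA genes was -0.01 below that threshold and -0.30 at or above it. Among the 17, Mir15a, Mir18, Mir23b and Mir210 were lower at that p, and Mir191 and Mirlet7a-1 were higher. Mir23b, a relative of miR-23a, measured 4.15 and 4.12 in KO, against 4.91 and 4.89 in WT (-0.76 ± 0.16, SE). Mir210, the miRNA induced by hypoxia, measured 5.72 and 5.72 in KO, against 6.18 and 6.69 in WT (-0.72 ± 0.22, SE). Both had KO arrays below WT arrays without passing the adjusted threshold.

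In 3 further genes of that list the groups overlapped. Mir142, which is expressed through the blood lines, measured 7.11 and 6.80 in KO, against 8.03 and 6.42 in WT (-0.27 ± 0.49, SE), and its difference was 0.53 without WT replicate 1. Mir139, with -0.18, and Mir99b, a neighbour of the stem cell gene Mir125a, with -0.11, were the others. The myeloid list had 5 measured genes, of which all 5 had a lower KO mean and 0 an unadjusted p under 0.05. Their summed level was 8.57 and 8.59 (log2 of the sum) in KO, against 10.24 and 8.38 in WT, so WT replicate 2 lay below both KO arrays and the lower KO mean of the sum rested on WT replicate 1. The lymphoid list had 10, with 2 lower (against 6.93% of all genes) and 0 higher (against 10.5%) at that p. The 2 lower ones were Mir17 and Mir18, neighbours in 1 cluster on chromosome 14. The stem cell list had 12, with 0 lower and 2 higher (16.7%, against 10.5% of all genes). These 2 were Mirlet7e and Mir29a, both under the level threshold.

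Mir144 and Mir451a, the pair transcribed together in red cell precursors, lay below the level threshold. Of the 8 measured erythroid and megakaryocyte miRNA genes only Mir210 had an unadjusted p under 0.05 (12.5% lower, against 6.93% of all genes). Messenger RNA markers of erythroblasts differed at the same time. Of 6 measured, 4 rose in KO past the adjusted threshold (against 0.397% of all genes). The summed level of the 6 was 9.21 and 9.13 (log2 of the sum) in KO, against 6.84 and 6.70 in WT. Rhag, a red cell membrane channel, and Klf1, the erythroid transcription factor, were among the 4, while Slc4a1, the anion exchanger of red cells, was lower (-0.96, not past the adjusted threshold). Of 8 measured LSK markers, all 8 were at or above the level threshold. At an unadjusted p under 0.05, 4 were lower in KO (against 6.93% of all genes and 9.55% at or above the level). These 4 were Kit, Cd34, Flt3 and Meis1, and 0 were higher (against 10.5% and 17.5%). By mean, 6 of the 8 were lower in KO and 2 higher. The summed level of the 8 was 12.10 and 12.05 in KO, against 12.56 and 12.36 in WT. Of 10 neutrophil markers, 7 were higher in KO at that p (70.0%, against 10.5% of all genes). The summed level of the 10 was 12.97 and 12.97 in KO, against 12.85 and 12.49 in WT. Of 9 macrophage and dendritic cell markers, 2 rose past the adjusted threshold (against 0.397% of all genes). These were H2-Aa (1.73) and H2-Eb1 (1.48), which encode class II antigen-presenting chains. No other marker of that list had an unadjusted p under 0.05. By mean, 5 of the 9 were higher in KO and 4 lower, with a median difference of 0.03. The summed level of the 9 was 9.84 and 9.90 in KO, against 9.38 and 9.07 in WT. Platelet and megakaryocyte markers numbered 8, of which 2 were higher (unadjusted p under 0.05, against 10.5% of all genes) and 0 lower (against 6.93%). The summed level of the 8 was 9.02 and 9.01 in KO, against 8.35 and 8.57 in WT. Of 9 B cell markers, 2 were lower at that p (22.2%, against 6.93% of all genes). Their summed level was 8.31 and 8.30 in KO, against 8.26 and 8.28 in WT. Of 9 T and NK cell markers, 1 was lower (11.1%, against 6.93%), with a summed level of 10.39 and 10.46 in KO, against 9.83 and 10.26 in WT. Neither list had a gene past the adjusted threshold. In bulk RNA, fewer cells of a type and less RNA per cell cannot be told apart, and the part of cell makeup in the miRNA differences was not tested.

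Of the 12 measured let-7 genes, 8 had a higher and 4 a lower mean in KO. At an unadjusted p under 0.05, 4 were higher (33.3%, against 10.5% of all genes) and 0 lower, the median difference was 0.31, and 0 passed the adjusted threshold. The 4 with a lower mean were Mirlet7b (-0.12), Mirlet7c-1 (-0.29), Mirlet7c-2 (-0.35) and Mir98 (-0.49). Only Mirlet7a-1 and Mirlet7i reached the level threshold, and their mature strands share the seed GAGGUAG. Mirlet7i measured 5.51 and 4.96 in KO, against 4.84 and 4.66 in WT (0.49 ± 0.23, SE), so its KO arrays lay above its WT arrays. The others at that p were Mirlet7a-2 (0.79), Mirlet7e (0.79) and Mirlet7f-1 (0.50). let-7 genes are near copies of each other, and their probe sets may share signal.

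In all, 6 seeds were shared by 2 of the 107 miRNA genes each. With the seed AAAGUGC of the miR-17 family, Mir20a had a difference of -0.41 and Mir106b of -0.04, that of Mir106b turning to 0.08 after quantile normalization. With ACAUUCA of the miR-181 family, Mir181c had -0.49 and Mir181d 0.05, although both lie in 1 cluster. With CACUGAG, Mir3473d had -0.70 and Mir674 -0.55. Differences between genes of 1 seed were not tested. The 6 letters AGCAGC, searched on the mature strand with the first letter at base 1 to 3, occurred in 2 of 148 mature sequences, miR-15a-5p and miR-107-3p. Mir107, inside the pantothenate kinase gene Pank1, measured 4.63 and 4.87 in KO, against 5.48 and 5.27 in WT (-0.63 ± 0.19, SE).

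Genomic clusters were taken as miRNA genes within 10 kb of each other, and 7 clusters held at least 2 of the 107 miRNA genes. In the cluster of Mir17, Mir18, Mir19a and Mir20a on chromosome 14, which promotes proliferation and B cell survival, these 4 genes had a lower KO mean on all arrays together. The probe set that lists the remaining genes of the cluster, Mir19b-1 and Mir92-1, with the host transcript Mir17hg lay the other way. It measured 4.73 and 4.399 in KO, against 3.90 and 4.38 in WT (0.42 ± 0.25, SE). Mir18 measured 4.75 and 5.32 in KO, against 6.41 and 5.41 in WT (-0.87 ± 0.36, SE). Mir20a measured 7.19 and 7.21 in KO, against 7.76 and 7.45 in WT (-0.41 ± 0.18, SE). Mir19a measured 5.10 and 5.10 in KO, against 6.09 and 4.63 in WT (-0.26 ± 0.44, SE). The KO arrays lay below WT for Mir18 and Mir20a and within the WT arrays for Mir19a, whose difference was 0.47 without WT replicate 1. Mir17 itself lay under the level threshold (-0.99).

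Mir23a and Mir27a, neighbours on chromosome 8 whose products restrain B cell development in mice, depended on 1 array. Mir23a measured 6.79 and 6.86 in KO, against 8.79 and 6.67 in WT. Mir27a measured 6.88 and 7.17 in KO, against 8.94 and 7.02 in WT. WT replicate 1 stood more than 1 log2 unit above the other 3 arrays in both, and WT replicate 2 lay within or below the KO arrays. Differences between WT arrays of more than 1 occurred for 11 of the 107 miRNA genes, with WT replicate 1 the higher in 10, and differences of more than 1 between KO arrays occurred for 3. Mir142, Mir19a, Mir106b, Mir1898, Mir1938, Mir1962, Mir5098 and Mir5123 were the others higher in WT replicate 1 than in WT replicate 2. For Mir1938, WT replicate 1 (6.69) lay below both KO arrays (6.95 and 6.84), and WT replicate 2 was the low array (5.51). For Mir5123, WT replicate 1 (5.86) lay near KO replicate 2 (5.77).

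The cluster of Mir673, Mir540 and Mir665 on chromosome 12 lies in an imprinted region that is known for its role in stem cell maintenance. Mir673 measured 6.75 and 7.17 in KO, against 7.42 and 7.49 in WT (-0.49 ± 0.20, SE). Mir665 measured 4.22 and 4.63 in KO, against 5.02 and 5.15 in WT (-0.65 ± 0.20, SE). Mir540 had a smaller difference (-0.25), and in all 3 genes the KO arrays lay below the WT arrays. Meg3, the maternally expressed non-coding RNA of the imprinted region, measured 3.63 and 3.50 in KO, against 4.01 and 4.17 in WT (-0.53 ± 0.17, SE). It lay under the level threshold and was not past the adjusted threshold. On chromosome 9, Mir191 and its neighbour Mir425 were both higher in KO by mean. Mir425 measured 4.82 and 4.55 in KO, against 4.59 and 3.76 in WT (0.51 ± 0.29, SE), with overlapping groups. Dalrd3, the gene that contains both, had a difference of 0.32 ± 0.14 (SE). In a further pair, Mir301b measured 4.11 and 4.19 in KO, against 5.10 and 5.08 in WT (-0.94 ± 0.17, SE; adjusted p = 0.078 in limma), and its neighbour Mir130b, under the level threshold, had a difference of -0.82. Mir3093 (-0.26) and Mir9-1 (-0.21) on chromosome 3 had small differences.

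An intron of Sfmbt2, a Polycomb-type gene expressed from the paternal allele, holds a large rodent family of near-identical miRNA genes. In total 22 of them had a probe set of their own, and 3 (Mir467c, Mir467e and Mir466h) were among the 107. Mir467c measured 6.81 and 6.13 in KO, against 7.40 and 7.81 in WT (-1.14 ± 0.27, SE). Mir467e measured 4.73 and 4.58 in KO, against 5.33 and 6.33 in WT (-1.17 ± 0.33, SE). Mir466h measured 4.18 and 4.21 in KO, against 5.56 and 5.10 in WT (-1.14 ± 0.21, SE; adjusted p = 0.082 in limma). The KO arrays lay below the WT arrays in all 3, and none passed the adjusted threshold. Without WT replicate 2 the difference of Mir467e was -0.68.

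The genes of that family that did not reach the level threshold lay on the same side. Over all 22, 19 had a lower KO mean (86.4%, against 50.2% of all genes), and the median difference was -0.39. At an unadjusted p under 0.05, 10 were lower (against 6.93% of all genes) and 0 higher (against 10.5%). Both KO arrays lay below both WT arrays in 14 (against 22.9% of all genes) and above in 0 (against 25.1%). The 19 below the threshold had a median of -0.28, against 0.01 for the 352 other miRNA genes below it. Sfmbt2 itself measured 3.20 and 3.79 in KO, against 3.30 and 3.40 in WT (0.15 ± 0.23, SE), with overlapping groups. Probe sets of near-identical genes can read the same transcripts, so these 22 are not 22 separate measurements. Without the family, the 104 remaining miRNA genes had a median difference of -0.28. At an unadjusted p under 0.05, 27 of them were lower (against 6.93% of all genes) and 4 higher (against 10.5%).

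**Figure D4:**
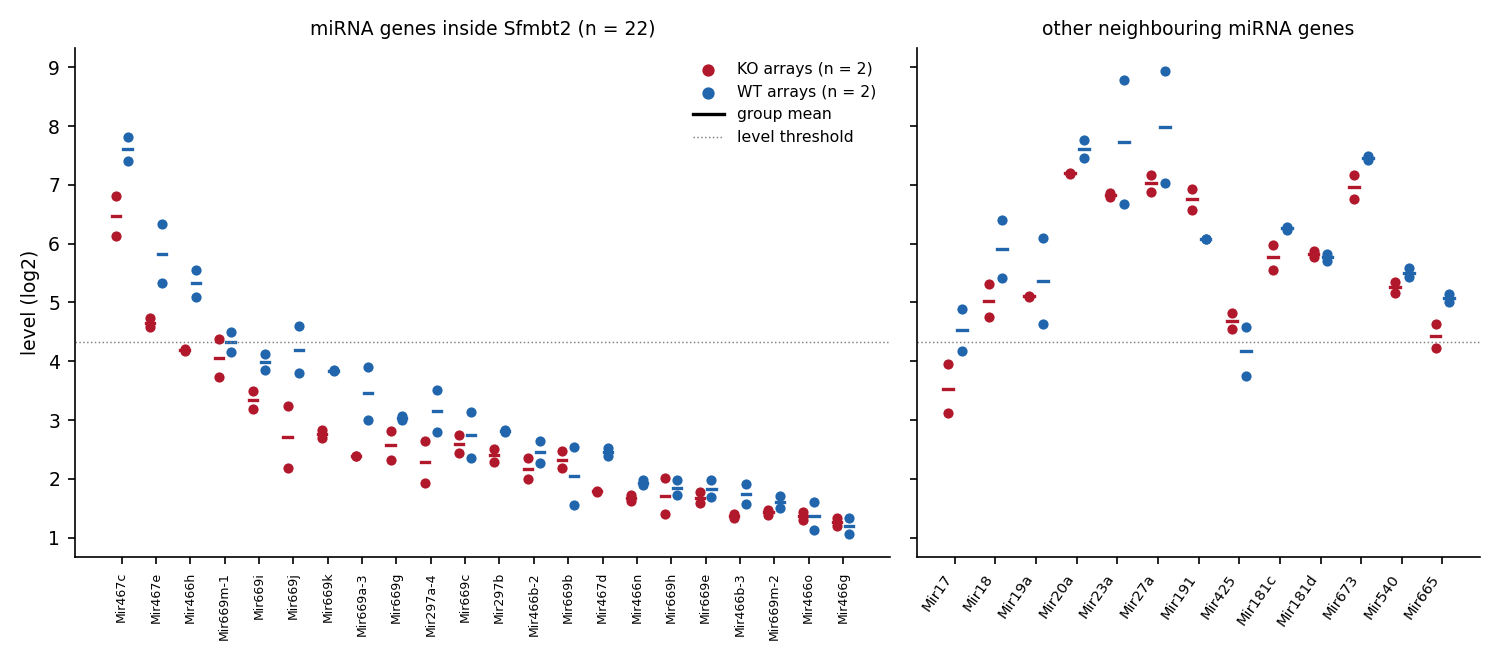
Level (vertical axis, log2) on each KO array (left point of a pair) and each WT array (right point), with group means as bars, for the 22 measured miRNA genes inside Sfmbt2 (left panel, ordered by mean level) and for neighbouring miRNA genes of 5 other clusters (right panel). The KO points lie below the WT points for Mir467c, Mir467e and Mir466h, while WT replicate 1 alone stands high for Mir23a and Mir27a.

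Most of the miRNA genes lay inside another gene. Of the 107, 77 (72.0%) lay within a RefSeq protein-coding or long non-coding gene, against 238 of 371 miRNA genes below the threshold (64.2%). The median difference was -0.36 for the 77 and -0.28 for the 30 outside such a gene. A measured host not on the opposite strand was found for 64 (49 on the same strand, 15 with a host strand not settled), from 60 host genes. Over these 64 pairs the miRNA genes had a median difference of -0.36, and the 60 hosts, each counted once, had a median of -0.07. Both were lower in 33 pairs and both higher in 6, the miRNA gene was lower and the host higher in 19, and the reverse held in 6.

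The 22 miRNA genes with an unadjusted p under 0.05, a lower level in KO and a measured host had a median difference of -1.09. Their hosts, counted once for each miRNA gene, had a median of -0.03. At that p, 4 of these hosts were lower (against 6.93% of all genes) and 3 higher (against 10.5%). Zmiz1, the host of Mir3075, measured 8.28 and 8.18 in KO, against 9.24 and 8.90 in WT (-0.84 ± 0.18, SE). Hmga2, the host of Mir763, measured 5.09 and 4.98 in KO, against 5.53 and 5.88 in WT (-0.67 ± 0.20, SE). Each of these 2 hosts lay on the same side as its miRNA gene. 2610318N02Rik, the host of Mir301b, measured 8.33 and 8.33 in KO, against 7.32 and 7.72 in WT (0.81 ± 0.19, SE). 3110082I17Rik, the host of Mir339, measured 8.23 and 8.10 in KO, against 7.81 and 6.54 in WT (0.99 ± 0.39, SE). These 2 lay above WT in KO while Mir301b and Mir339 (-0.98 ± 0.19, SE) lay below. A probe set of a miRNA gene inside an intron can read unspliced host RNA, and the share of it was not tested.

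**Figure D5:**
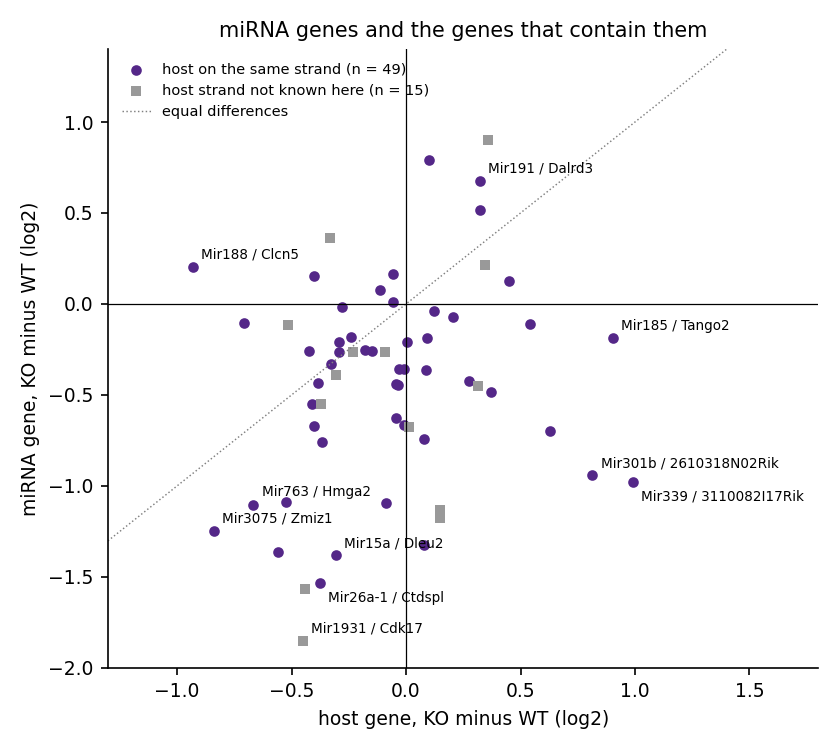
KO minus WT difference of each miRNA gene (vertical axis, log2) against that of the gene that contains it (horizontal axis, log2) for 64 pairs. Circles are hosts on the same strand, squares hosts whose strand was not settled, and the dotted line marks equal differences. The points spread widely around that line, and Mir301b and Mir339 lie low while their hosts lie high.

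The proteins that make and use miRNAs were measured by 33 genes of a list, none of which passed the adjusted threshold. At an unadjusted p under 0.05, 3 were higher in KO (9.09%, against 10.5% of all genes and 17.5% of those at or above the level) and 6 lower (18.2%, against 6.93% and 9.55%), and the median difference was -0.14. Drosha, the nuclear nuclease, measured 7.12 and 7.03 in KO, against 7.09 and 6.76 in WT (0.15 ± 0.19, SE). Dicer1 measured 7.57 and 7.29 in KO, against 7.69 and 7.24 in WT (-0.03 ± 0.22, SE). The groups overlapped in both. Xpo5, the export receptor, measured 7.79 and 7.70 in KO, against 7.23 and 7.20 in WT (0.54 ± 0.16, SE), and Ran, the GTPase it works with, had a difference of 0.56. Prkra, a Dicer1 partner, was the third higher one (0.68).

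The 6 lower genes have different roles. Ago1 (-0.60) and Ago3 (-0.44) encode Argonaute proteins, and Tnrc6c (-0.58) encodes a scaffold that links them to deadenylation. Tut4 (-0.45) and Tut7 (-0.68) encode the uridylyltransferases that tag let-7 precursors, and Safb2 (-0.65) encodes a cofactor for cutting clustered hairpins such as that of miR-15a. Ago2, the Argonaute that cuts, measured 9.22 and 9.14 in KO, against 9.93 and 9.38 in WT (-0.48 ± 0.21, SE), with both KO arrays below both WT arrays and an unadjusted p of 0.058.

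Of 25 measured textbook targets of hematopoietic miRNAs, 9 were lower in KO at an unadjusted p under 0.05 (36.0%, against 6.93% of all genes and 9.55% of those at or above the level) and 3 of 25 higher (against 10.5% and 17.5%), and 0 passed the adjusted threshold. Bcl2, a target of miR-15a, measured 9.51 and 9.46 in KO, against 10.04 and 9.996 in WT (-0.53 ± 0.13, SE). Its level was lower in the same arrays as that of Mir15a. Cdkn1a (-0.86), Bcl2l11 (-1.01), Plk2 (-0.94) and Tet2 (-0.73) were among the other lower ones, and Bak1 (0.67), Nfia (0.62) and E2f1 (0.52) were the higher ones.

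The 107 miRNA genes differed from those below the threshold in sequence. Hairpins of the 86 with a RefSeq entry had a median GC content of 55.8%, against 46.8% for the 314 hairpins below the threshold, at nearly equal length (median 83.5 and 83 bases). Names numbered 1000 or over, given to later entries, made up 44 of the 107 (41.1%), against 22.6% below the threshold. The median difference was -0.27 for those 44 and -0.36 for the other 63. As a measure of repeated sequence, hairpins were searched for runs of 16 bases, on both strands, in 32851 promoter windows of other genes. At least 10 windows held such a run for 7 of the 86 (8.14%), against 9 of 314 (2.87%) below the threshold. The 7 were Mir1954 (139 windows, 0.423% of all), Mir3473c (80), Mir574, Mir3473d, Mir1191, Mir149 and Mir5128 (10). Their median difference was -0.26, against -0.27 for the other 79, and whether their probe sets read other transcripts was not tested. Genes without a RefSeq hairpin here were not searched, among them Mir28c, Mir15a and the Sfmbt2 genes Mir467c, Mir467e and Mir466h.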

How the data were processed

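Expression of sorted LSK cells was measured in 2 KO and 2 WT samples. The authors deposited log2 expression values for 41345 probe sets on 4 arrays. Affymetrix Expression Console 1.2.1 and RMA were named, per the submitters' processing notes, with no further settings. RMA compresses dim signals, so folds of dim genes are understated. Depth does not apply to arrays, and 2 arrays a group limit the precision.

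Of 41345 probe sets the platform annotation listed 25335, and 23521 had 1 gene. Each of 22180 genes was represented by its probe set of highest mean, without a filter. KO minus WT was fitted in limma 3.58.1 (R 4.3.3, lmFit and eBayes with an intensity trend), two-sided, with Benjamini-Hochberg adjustment over all genes, and the procedure was tested on simulated data. An exact permutation test of 2 against 2 arrays cannot go below p = 0.333. Errors are moderated SEs.

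The miRNA genes and the gene lists (blood miRNAs and their erythroid, myeloid, lymphoid, stem cell, miR-17-92 and let-7 groups, machinery, hosts, targets, cell markers) were chosen with earlier results of these data known. Named were genes past the adjusted threshold, up to 12 of largest difference per direction (unadjusted p under 0.05, no overlap), the 8 of largest signal, up to 8 of smallest p per list, cluster members, machinery and host genes, and 3 on each side of the threshold. Targets, markers, Mir139, Mir106b, the let-7 genes of lower mean and the probe sets of several genes were named after their values were seen. So were the genes higher in WT replicate 1 than in WT replicate 2. Sequences, positions and hosts came from RefSeq GRCm38.p6. A build for the deposited table was not given in the sources used here. Probe sets listing several genes were left out. Alternatives were a replicate block, mean or single probe sets, testing only genes at or above the threshold, quantile normalization, median centring, no trend, and leaving out each array.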

Additional observations from a re-analysis of the deposited data

How the results depend on the processing

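The count of miRNA genes past the adjusted threshold was 2 lower and 0 higher. It was 5 lower and 1 higher when only genes at or above the level threshold were tested, 4 lower and 1 higher after centring each array on its median gene, and 0 lower with every probe set tested on its own. Leaving out 1 array at a time gave 0 to 19 lower and 0 to 2 higher. At an unadjusted p under 0.05 the 30 lower ranged over 17 to 35 and the 4 higher over 3 to 9 without 1 array, and quantile normalization gave 7 higher. With the replicate number as a block the unadjusted counts were 35 lower and 7 higher and the adjusted ones 3 lower and 0 higher, Mir15a being the gene added. The labels tie same-numbered samples to no shared animal, batch or day, so they share only a number. Deviations of KO replicate 1 and WT replicate 1 correlated by 0.11 over all genes and by 0.03 over the 107. The median difference of -0.30 ranged over -0.45 to -0.27 without 1 array, the lowest without KO replicate 2. The median difference kept its direction under these alternatives. So did Ncoa3 and the 16 miRNA genes of largest lower and higher difference (unadjusted p under 0.05, no overlap). The KO and WT arrays of these genes did not overlap, so leaving out 1 array could not turn their direction. The block, no trend and testing only genes at or above the threshold leave a difference unchanged by construction. Over the 107 the direction turned for 7 after quantile normalization, 3 after centring, and 8 to 15 without 1 array. Mir1931 and Mir26a-1 kept their adjusted call under the block, the mean of probe sets, the genes at or above the threshold, quantile normalization, centring, no trend and without either WT array, and lost it in the other 3. Ncoa3 kept and lost its adjusted call under the same alternatives as these 2 genes. The cause of these shifts was not tested. Detection calls were not used, and a probe set near background was treated like any other.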

Other observations

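Probe sets that list a miRNA gene together with another gene were outside the comparison. There were 136, of which 66 were at or above the level threshold, with a median KO minus WT difference of -0.17 and 41 lower means. Among them the probe set of Mir223, the main miRNA of granulocytes, shared with F630028O10Rik, had a difference of -0.15, and that of Mir21a, shared with Vmp1, had -0.23. These 2 were named after their values were seen.

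Ank1, the red cell ankyrin gene that contains Mir486a, rose in KO past the adjusted threshold. It measured 5.57 and 5.81 in KO, against 4.26 and 3.86 in WT (1.63 ± 0.21, SE; adjusted p = 0.044 in limma). Of the 43 measured genes of the host list, Ank1 was the 1 that rose at that threshold (against 0.397% of all genes). Only Ncoa3 fell (against 0.113% of all genes). Ncoa3 is the targeted gene, so its fall is not a result about host genes. The 2 probe sets that list Mir486 with Mir3107 had differences of 0.01 and 0.02, with overlapping groups.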
